A study of Homo sapiens with 6 samples.

Results

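The unfolded protein response and protein folding in the endoplasmic reticulum (ER) were followed through 34 genes in T98G cells carrying a short hairpin RNA against SLC1A5. The genes were named by symbol for their role in this system, and the rule itself holds no measured value, but the choice of genes was made with earlier results of these data known. All 34 were among the 35750 genes of the table and among the 11841 genes tested. In the shSLC1A5 libraries 18 of the 34 were called lower and 3 higher than in the shControl libraries, where 19.0% of all tested genes were called lower and 20.2% higher. Corrected for a trend with GC content and transcript length, 16 were lower and 1 higher, where 14.1% of all tested genes were lower and 11.6% higher. The falls were deep in 2 genes, DNAJB9 (41.9% lower) and HERPUD1 (34.5% lower), and were between 6.79% and 17.6% in the other 16. Of the 34, only these 2 had an absolute log2 fold change of at least 0.3. Over all tested genes 13.1% were called with one that large. With bulk RNA, fewer cells with a transcript and less of it per cell cannot be told apart.

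T98G is a human glioblastoma cell line, and SLC1A5 is a sodium-dependent carrier that brings glutamine and other neutral amino acids into the cell. The study set 3 libraries from shSLC1A5 cells against 3 from shControl cells to ask how depletion of this carrier changes gene expression. Both groups grew in DMEM with 10% fetal bovine serum. The labels name no hairpin sequence, vector or duration, and they leave unsaid whether each library had its own culture: the p-values then reflect the spread among 3 libraries a group, and that spread may be technical.

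SLC1A5 itself had 87.5, 88.0 and 88.3 FPKM in shSLC1A5 libraries, against 95.01, 95.26 and 97.1 FPKM in shControl libraries. FPKM are fragments scaled to gene length and library size. The groups did not overlap, and the level was 9.02% lower (log2 fold change -0.14, SE 0.0183, adjusted p = 1.93e-04 by edgeR's quasi-likelihood test). After the GC and length correction the log2 fold change was -0.34 (edgeR's adjusted p = 3.21e-07). By exact permutation of the FPKM between groups (two-sided) p was 0.1, and no smaller p is possible with 3 and 3 libraries. Total counts ran from 66998312 to 70802167 in shSLC1A5 libraries and from 59327548 to 63420773 in shControl libraries. Of 8 markers of a mesenchymal glioma line 6 passed the filter for testing, among them VIM with 131995 to 139073 counts in shSLC1A5 libraries and 136570 to 143021 in shControl libraries. Scaled for library size, VIM had 336 to 344 FPKM in shSLC1A5 libraries and 385 to 397 FPKM in shControl libraries. FN1 went the other way, with 42.2 to 43.0 FPKM in shSLC1A5 libraries and 33.3 to 34.9 FPKM in shControl libraries. CHI3L1 had 137 to 188 counts in shSLC1A5 libraries and 28 to 57 in shControl libraries. NES, which encodes nestin, had 72 to 92 counts in shSLC1A5 libraries and 32 to 45 in shControl libraries. Transcripts of blood cells were seen in shSLC1A5 libraries. The 10 B cell and plasma cell markers summed to 1311, 627 and 976 counts there, against 18, 14 and 26 in shControl libraries, and the 9 neutrophil markers to 4754, 47 and 39 counts, against 12, 12 and 22. Of the B cell and plasma cell markers, 6 were at 0 in all shControl libraries; the immunoglobulin gene IGHM had 729, 378 and 688 counts in shSLC1A5 libraries. The neutrophil enzyme gene MPO was at 0 in all 6 libraries. Plasma cells are rich in several of the transcripts described here, and the part of these reads in the results was not tested. Without shSLC1A5 replicate 1, which held most of the neutrophil reads, 17 of the 34 genes were lower and 3 higher.

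Proteins of the secretory pathway fold inside the ER, where chaperones, glycan-binding lectins and disulfide isomerases assist them. When unfolded chains accumulate, the membrane sensors ERN1 (IRE1), EIF2AK3 (PERK) and ATF6 start the unfolded protein response: IRE1 splices the XBP1 transcript, PERK slows translation and favours ATF4, and ATF6 is cut in the Golgi to release a transcription factor. XBP1 and ATF6 raise chaperones and the machinery of ER-associated degradation (ERAD), which moves misfolded proteins to the cytosol for destruction. Glioblastoma cells secrete large amounts of matrix and growth factors and are known to use this system. The deposited values are per gene, so spliced and unspliced XBP1 were not told apart, and neither sensor activity nor protein was measured.

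The control element best known for these genes is the ER stress response element (ERSE), read by ATF6 and XBP1 together with NF-Y. It was searched as CCAAT and CCACG with any 9 bases between them, on both strands of RefSeq promoter windows of 300 bases (250 before each start site and 50 from it on; GRCh38.p14). ERSE-II was searched as ATTGG and CCACG with any 1 base between them, and the UPR element as TGACGTGG. All 3 hold CCACG on one strand or the other, so matches can share these letters. Of the 34 genes, 32 matched the promoter table, all but PDIA3 and DERL1. The windows of 4 genes are shown because they are the most abundant chaperone and the 3 genes with the largest falls, with the fixed letters of ERSE or ERSE-II in capitals.

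HSPA5, chr9:125241294-125241593, minus strand: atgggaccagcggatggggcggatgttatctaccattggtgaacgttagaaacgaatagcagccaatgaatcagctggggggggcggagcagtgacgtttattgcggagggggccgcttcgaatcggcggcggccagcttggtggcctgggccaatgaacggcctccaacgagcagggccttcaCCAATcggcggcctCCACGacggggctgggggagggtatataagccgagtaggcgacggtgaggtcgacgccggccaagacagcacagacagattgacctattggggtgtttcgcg

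HERPUD1, chr16:56931892-56932191, plus strand: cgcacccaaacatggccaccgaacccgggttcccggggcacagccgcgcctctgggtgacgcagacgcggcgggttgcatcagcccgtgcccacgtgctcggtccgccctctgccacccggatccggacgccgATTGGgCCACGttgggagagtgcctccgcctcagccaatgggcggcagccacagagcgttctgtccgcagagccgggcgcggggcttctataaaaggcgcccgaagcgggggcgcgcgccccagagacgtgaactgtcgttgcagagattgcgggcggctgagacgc

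XBP1, chr22:28800520-28800819, minus strand: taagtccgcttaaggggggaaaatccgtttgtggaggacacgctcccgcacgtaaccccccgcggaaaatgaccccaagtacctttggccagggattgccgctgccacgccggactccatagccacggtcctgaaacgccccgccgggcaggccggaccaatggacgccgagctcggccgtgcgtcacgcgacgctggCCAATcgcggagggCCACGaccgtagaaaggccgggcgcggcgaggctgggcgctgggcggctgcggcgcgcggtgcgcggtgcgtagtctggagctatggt

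DNAJB9, chr7:108569624-108569923, plus strand: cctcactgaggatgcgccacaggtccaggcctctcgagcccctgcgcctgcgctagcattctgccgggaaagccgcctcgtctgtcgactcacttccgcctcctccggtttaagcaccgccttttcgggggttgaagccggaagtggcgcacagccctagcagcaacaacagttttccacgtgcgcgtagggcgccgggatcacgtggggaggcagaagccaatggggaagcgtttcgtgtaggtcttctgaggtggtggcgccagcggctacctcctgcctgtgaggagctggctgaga

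Counted from the start site as 0, the ERSE of HSPA5 ran from -66 to -48, that of XBP1 from -52 to -34 and the ERSE-II of HERPUD1 from -117 to -107. The second RefSeq start of XBP1 and the DNAJB9 window held none of the 3 motifs in these letters. ERSE was found for 7 of the 32 genes (HSPA5, XBP1, HSP90B1, CALR, CANX, PDIA6 and CRELD2), a share of 21.9%, and in 0.0769% of the 35116 windows in the table. ERSE-II was found for HERPUD1, HYOU1 and SDF2L1 (9.38% of the 32, and 0.0541% of all windows), and the UPR element for DNAJC10 and HYOU1 (6.25%, and 0.729% of all windows). Of the 10 genes with ERSE or ERSE-II, 8 were lower, 1 higher and 1 not called, with a median log2 fold change of -0.14; of the other 22, 9 were lower and 2 higher, with a median of -0.09. A gene was counted when any of its windows matched, while all windows were counted singly, so these shares are unlike measures. The ERSE was searched as the element best known for these genes, so its larger share among them is no independent result. These are descriptions of letters in a window, and the difference between the medians was not tested.

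Across the 34 genes, 18 fell and 3 rose at an adjusted p under 0.05 (edgeR's quasi-likelihood test, Benjamini-Hochberg adjustment over all genes tested), where 19.0% of all tested genes were called lower and 20.2% higher (39.2% in all). The falling share was therefore 52.9% against that 19.0%, and the rising share 8.82%. FPKM of the groups did not overlap and were lower in shSLC1A5 libraries for 19 of the 34, against 22.3% of all tested genes, and higher for 3, against 27.3% (49.6% in either direction). The median log2 fold change was -0.11, beside -0.01 over all tested genes. The genes are well expressed, with a median of 16.1 FPKM against 6.30 over all tested genes. With only genes averaging 5 FPKM or more in the test, 23.4% of genes were called lower and 26.7% higher (50.1% in all). Summed over the 34 genes the level was 2070, 2104 and 2110 FPKM in shSLC1A5 libraries, against 2236, 2233 and 2259 FPKM in shControl libraries. By role these sums were lower in every shSLC1A5 library than in any shControl library for sensors and transcription factors, chaperones and ERAD. Such sums are weighted to abundant genes. XBP1, a transcription factor, was the most abundant of the first group, at 51.4, 49.1 and 49.5 FPKM in shSLC1A5 libraries. It had 59.7, 58.9 and 61.9 FPKM in shControl libraries. Of ATF6, ATF6B, ERN1 and EIF2AK3, only ATF6 was called lower, and not with the GC and length correction. Among the chaperones HSPA5, CALR, CANX and HSP90B1 had the highest levels. The sums of the disulfide group overlapped, at 590.8, 595.5 and 602.3 FPKM in shSLC1A5 libraries, against 591.8, 590.0 and 599.7 FPKM in shControl libraries.

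**Figure D1:**
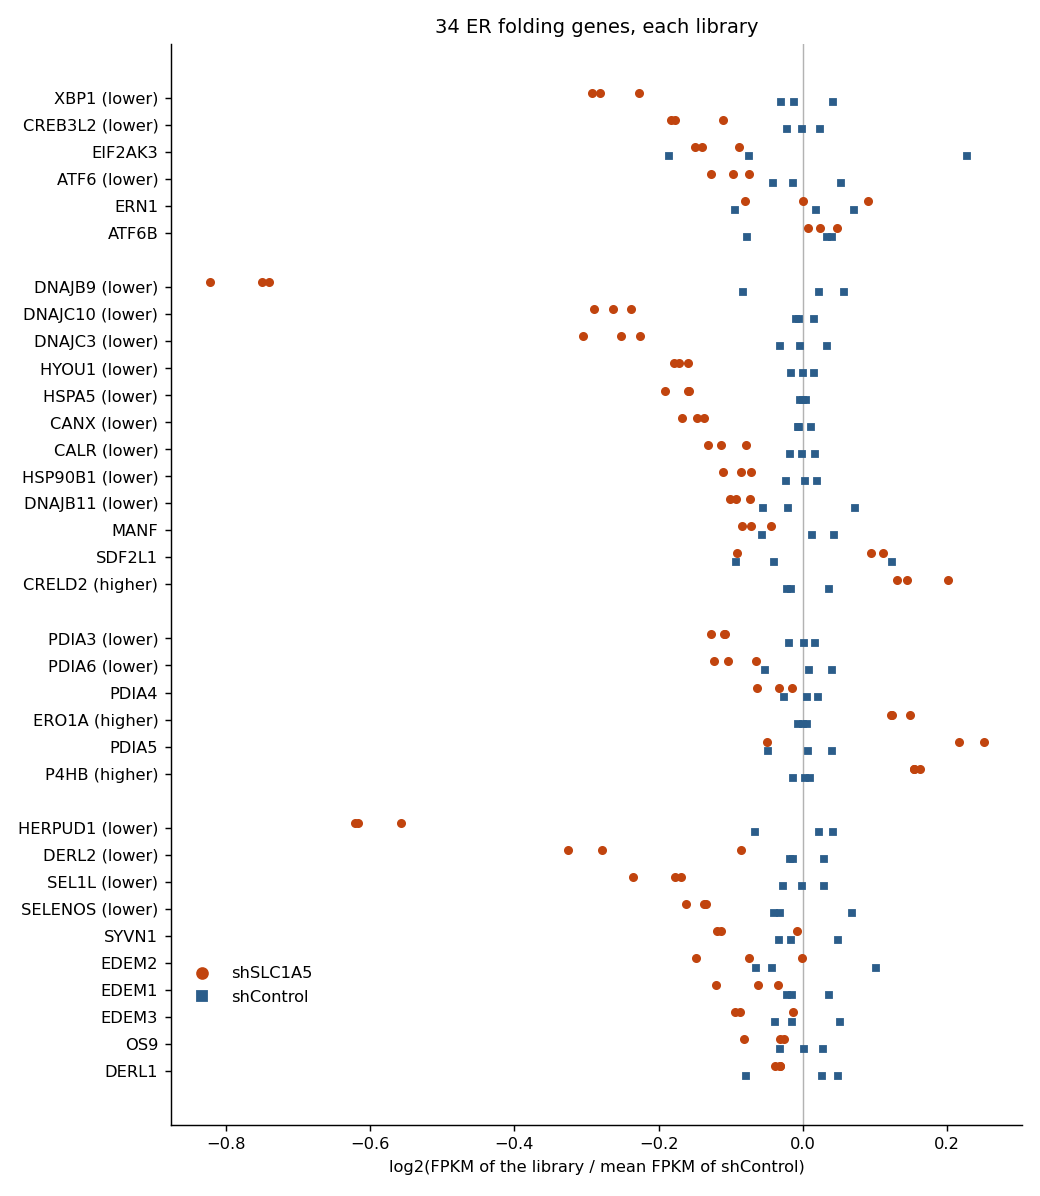
Level of each of the 34 genes in each library, as log2 of its FPKM over the mean of the shControl libraries, ordered by role and fold change; circles are shSLC1A5 and squares shControl libraries, and a word in brackets gives the edgeR call. DNAJB9 and HERPUD1 lie far left of the other genes, while the circles of P4HB, ERO1A and CRELD2 lie right of all squares.

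Across all tested genes a higher GC content of the transcript went with a higher fold change (Spearman correlation 0.49 over genes, which share libraries and are not independent), as it did across the 34 genes (0.47). The genes had a median GC content of 45.9%, against 48.0% over all tested genes. With offsets that remove the trend with GC content and length from each library, the correlation over the 34 genes was -0.08, and 16 genes were lower and 1 higher, where 14.1% of tested genes were called lower and 11.6% higher (25.7% in all). In both fits 13 genes were lower and 1, ERO1A, was higher. For the 34 genes, values with this correction are given below where it ended or added a call or moved a fold change by more than 1.5 times. The part of library preparation in this trend was not tested.

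**Figure D2:**
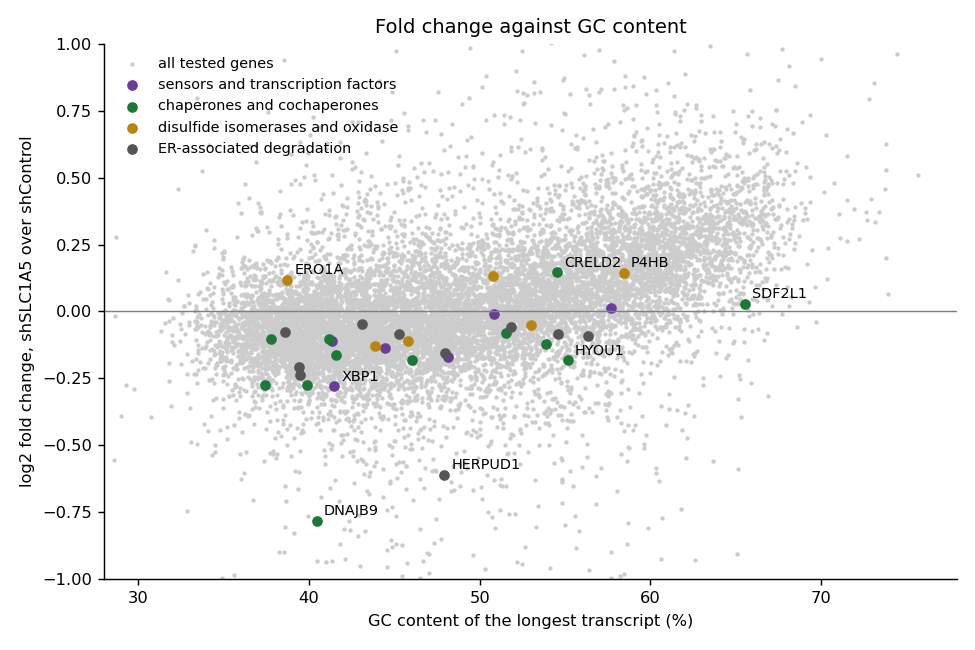
Log2 fold change (shSLC1A5 over shControl) of each tested gene against the GC content of its longest transcript, with the 34 genes coloured by role; genes beyond 1 in either direction are outside the axis. Grey points rise from left to right, and DNAJB9 and HERPUD1 lie well below the trend of these points at their GC content.

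Of the 6 sensors and transcription factors 3 fell and 0 rose, against 19.0% and 20.2% of all tested genes. Their median log2 fold change was -0.13. By unadjusted p under 0.05, by DESeq2 and by limma on log2(FPKM + 1), 0 of the 6 rose as well. XBP1 (ENSG00000100219, chromosome 22, 28794555 to 28800597, minus strand, coordinates as deposited, with no build named but overlapping the same gene on GRCh38), the factor made active by IRE1, had 51.4, 49.1 and 49.5 FPKM in shSLC1A5 libraries, against 59.7, 58.9 and 61.9 FPKM in shControl libraries. All 3 shSLC1A5 values were below all shControl values, and XBP1 fell by 0.28 as a log2 fold change (SE 0.0290, edgeR's adjusted p = 3.27e-05), or by 0.19 with the correction. CREB3L2, a membrane-bound factor of the ATF6 kind that raises secretory pathway genes, had 14.9, 15.0 and 15.7 FPKM, against 16.7, 17.2 and 16.9 FPKM in shControl libraries. These groups did not overlap either, and CREB3L2 fell by 0.17 (SE 0.0270, adjusted p = 6.37e-04 by edgeR).

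ATF6 had 9.09, 8.89 and 9.22 FPKM in shSLC1A5 libraries, against 9.63, 10.1 and 9.44 FPKM in shControl libraries. It fell by 0.11 (adjusted p = 0.0386 by edgeR), but the correction ended the call (adjusted p = 0.337). So did leaving out replicate 2 (adjusted p = 0.126) or 3 (0.0626) of shSLC1A5, or replicate 1 (0.0971) or 2 (0.157) of shControl. ATF6B, its close relative, had 15.1, 15.4 and 15.0 FPKM, against 15.3, 14.1 and 15.2 FPKM in shControl libraries, and the groups overlapped (log2 fold change 0.01, 95% confidence interval -0.08 to 0.11; -0.10 with the correction). ERN1, the kinase and nuclease IRE1, was the lowest of the 34 genes. It had 1.17, 1.10 and 1.24 FPKM in shSLC1A5 libraries and 1.09, 1.18 and 1.22 FPKM in shControl libraries. The values overlapped throughout, with a log2 fold change of -0.01 and a 95% confidence interval of -0.20 to 0.18. With the correction ERN1 was at -0.02. EIF2AK3, the kinase PERK, had 4.17, 4.14 and 4.32 FPKM, against 4.36, 5.38 and 4.04 FPKM in shControl libraries. shControl replicate 2 stood above the other 5 libraries. The log2 fold change was -0.14 (95% confidence interval -0.34 to 0.06, adjusted p = 0.260 by edgeR), or -0.01 without that library. With the correction EIF2AK3 was at -0.09.

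Chaperones and cochaperones fell in 9 of 12 cases and rose in 1, against 19.0% and 20.2% of all tested genes. Their median log2 fold change was -0.14. DNAJB9 (ENSG00000128590, chromosome 7, 108569867 to 108574850, plus strand) encodes ERdj4, a J-domain cochaperone of BiP that holds IRE1 inactive and is itself a target of XBP1. It had 4.99, 4.75 and 5.03 FPKM in shSLC1A5 libraries, against 8.53, 7.93 and 8.74 FPKM in shControl libraries. All 3 shSLC1A5 values were far below the lowest shControl value. DNAJB9 fell by 0.78 in log2 units (SE 0.0686, edgeR's adjusted p = 9.06e-06), and by 0.69 with the correction. Its fold change stayed between -0.83 and -0.75 when any one library was left out.

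HSPA5 (ENSG00000044574, chromosome 9, 125234853 to 125241343, minus strand), which encodes BiP, the HSP70 chaperone of the ER, was the most abundant of the 34. It had 385, 394 and 394 FPKM in shSLC1A5 libraries, against 439, 438 and 441 FPKM in shControl libraries. Its level was thus 391 ± 5.25 FPKM in shSLC1A5 libraries and 439 ± 1.22 FPKM in shControl libraries (SD, n = 3 each), without overlap. In log2 units HSPA5 fell by 0.18 (SE 0.0139, edgeR's adjusted p = 3.26e-06). Some of its partners fell too: HYOU1 (GRP170, a nucleotide exchange factor) by 0.18 and DNAJC3 (P58IPK, a J-domain protein) by 0.27. DNAJC10 (ERdj5, a J-domain protein that reduces disulfides) fell by 0.28. Not all did: DNAJB11 lost its call with the correction and MANF was not called, as given below. DNAJC3 was at 19.6 ± 0.537 FPKM in shSLC1A5 libraries and 23.5 ± 0.539 FPKM in shControl libraries (SD, n = 3 each). DNAJC10 was at 4.56 ± 0.0821 FPKM in shSLC1A5 libraries and 5.47 ± 0.0507 FPKM in shControl libraries (SD, n = 3 each).

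The lectin chaperones that bind glycans of new proteins fell as well. CANX, the membrane protein calnexin, was at 249 ± 2.70 FPKM in shSLC1A5 libraries and 276 ± 1.91 FPKM in shControl libraries, and CALR, its soluble relative calreticulin, at 267 ± 4.95 FPKM in shSLC1A5 libraries and 287 ± 3.45 FPKM in shControl libraries (SD, n = 3 each). The log2 fold change of CANX was -0.16 (-0.0952 with the correction) and that of CALR -0.12 (-0.16 with it), each called lower in both fits. HSP90B1, the ER HSP90 called GRP94, fell by 0.10, but was at -0.01 with the correction (adjusted p = 0.645 by edgeR). DNAJB11, the cochaperone ERdj3, was at -0.10 (adjusted p = 0.0235 by edgeR), or -0.03 with the correction (adjusted p = 0.558). Its call was also lost without any one library other than shControl replicate 2 (adjusted p from 0.0521 to 0.0848).

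The other 3 genes of this group were not called lower without the correction. CRELD2, a cysteine-rich protein induced by ER stress and by ATF6, rose: it had 15.0, 14.3 and 14.5 FPKM in shSLC1A5 libraries, against 12.9, 12.9 and 13.4 FPKM in shControl libraries. The groups did not overlap (log2 fold change 0.15, adjusted p = 0.0116 by edgeR), but with the correction (0.10, adjusted p = 0.0791) or with shControl replicate 2 left out (adjusted p = 0.0518) it was no longer called. ALG12, a mannosyltransferase gene on the opposite strand, shares 3.25% of the exon bases of CRELD2, and the strand setting of the counting is not given. ALG12 had 7.45 FPKM in shSLC1A5 libraries and 6.16 FPKM in shControl libraries. SDF2L1, which works with ERdj3, had 19.5, 22.1 and 22.4 FPKM in shSLC1A5 libraries and 20.2, 22.6 and 19.4 FPKM in shControl libraries. The groups overlapped and the log2 fold change was 0.03 (95% confidence interval -0.14 to 0.19). Its transcript has the highest GC content of the 34 (65.5%), and with the correction it was called lower at -0.27 (adjusted p = 0.0397). MANF, a secreted protein that binds BiP, was at -0.08 with an adjusted p of 0.128 by edgeR.

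**Figure D3:**
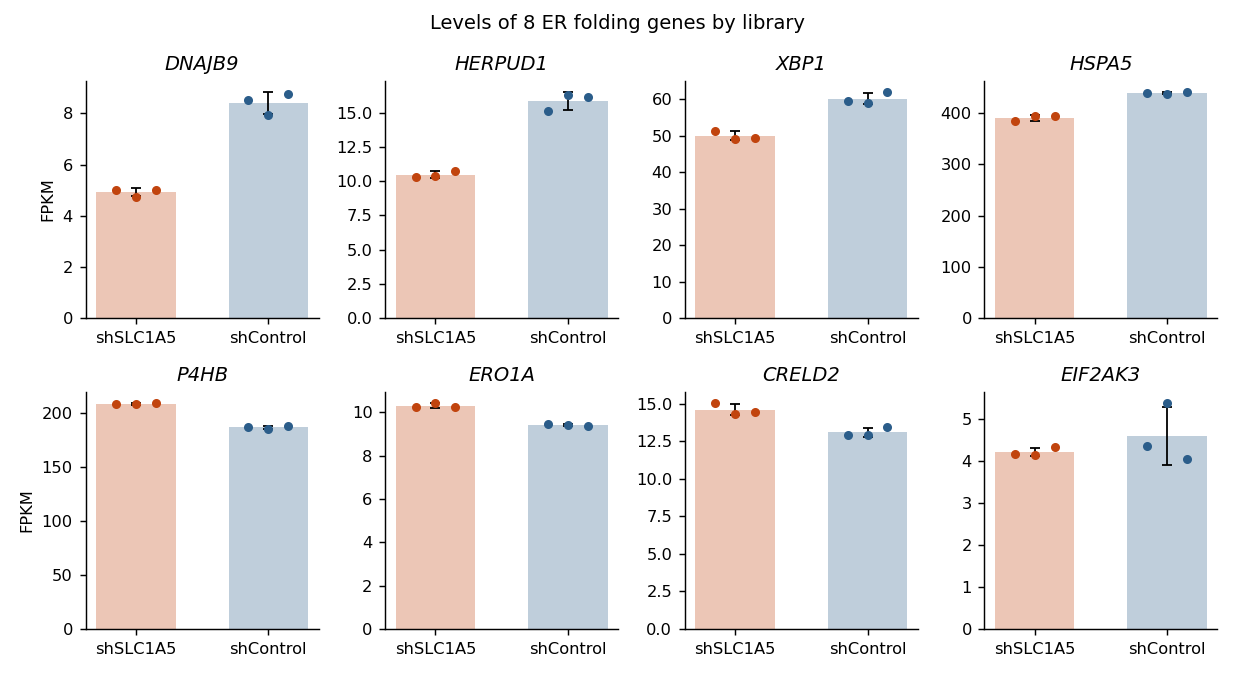
FPKM of 8 of the 34 genes in each library (points), with the mean (bar) and SD (line) of 3 libraries per group. shSLC1A5 points lie below all shControl points for DNAJB9, HERPUD1, XBP1 and HSPA5 and above them for P4HB, ERO1A and CRELD2, and the groups overlap for EIF2AK3.

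The disulfide isomerases and their oxidase went both ways, with 2 of 6 lower, 2 higher and a median log2 fold change of 0.03. With the correction 2 were lower and 1 higher, and the median was -0.01. P4HB (ENSG00000185624, chromosome 17, 81843161 to 81860624, minus strand) encodes protein disulfide isomerase itself, which is also a subunit of the enzyme that hydroxylates proline in collagen. It had 208, 208 and 209 FPKM in shSLC1A5 libraries, against 187, 185 and 188 FPKM in shControl libraries. The groups were far apart relative to their spread, and P4HB rose by 0.14 in log2 units (SE 0.0154, edgeR's adjusted p = 3.89e-05). Its transcript has a GC content of 58.4%, and with the correction the log2 fold change was 0.01 (adjusted p = 0.708).

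ERO1A, the oxidase that recharges PDI and is also induced by low oxygen, had 10.2, 10.4 and 10.3 FPKM in shSLC1A5 libraries, against 9.45, 9.40 and 9.36 FPKM in shControl libraries. All 3 shSLC1A5 values were higher, and ERO1A rose by 0.12 (adjusted p = 0.0157 by edgeR), or by 0.18 with the correction (adjusted p = 0.00217). With shControl replicate 2 (adjusted p = 0.0563) or 3 (0.0538) left out it was no longer called. PDIA3 (ERp57), which serves the calnexin cycle, had a log2 fold change of -0.13 (-0.0675 with the correction, called lower in both fits), with 120 ± 0.906 FPKM in shSLC1A5 libraries and 130 ± 1.60 FPKM in shControl libraries (SD, n = 3 each). Its retrocopy PDIA3P1 was listed at 5.59 to 6.76 FPKM in shSLC1A5 libraries and 6.60 to 7.30 FPKM in shControl libraries, and reads may be split between them. PDIA6 (P5) was at -0.11 (adjusted p = 0.00524 by edgeR), or -0.03 with the correction (adjusted p = 0.342). PDIA4 (ERp72) was at -0.05 (adjusted p = 0.0587 by edgeR, called lower with the correction at -0.07, adjusted p = 0.0181). PDIA5 had 2.71, 3.26 and 3.34 FPKM in shSLC1A5 libraries and 2.71, 2.88 and 2.82 FPKM in shControl libraries. shSLC1A5 replicate 1 was as low as the shControl libraries while the other 2 were above them (log2 fold change 0.13, adjusted p = 0.309 by edgeR). PDIA5 shares 12.2% of its exon bases with SEC22A on the same strand, so its counts are uncertain. SEC22A had 2.69 FPKM in shSLC1A5 libraries and 2.78 FPKM in shControl libraries. On the opposite strand, PDIA6 shares 25.2% with ATP6V1C2, PDIA3 14.8% with ELL3 and EIF2AK3 14.4% with AC104134. These had 0.655, 0.426 and 0 FPKM in shSLC1A5 libraries and 0.554, 0.324 and 0.0276 FPKM in shControl libraries. PDIA6 itself had 84.9 and 90.8 FPKM. The part of such reads was not tested.

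Genes of ER-associated degradation fell in 4 of 10 cases and rose in 0, against 19.0% and 20.2% of all tested genes. All 10 log2 fold changes were below 0, with a median of -0.09. By unadjusted p under 0.05, by DESeq2 and by limma, 0 of the 10 rose too. HERPUD1 (ENSG00000051108, chromosome 16, 56932142 to 56944864, plus strand) encodes a short-lived membrane protein that organizes the HRD1 degradation complex and is induced by ATF6, XBP1 and ATF4. It had 10.3, 10.3 and 10.8 FPKM in shSLC1A5 libraries, against 15.1, 16.3 and 16.1 FPKM in shControl libraries. The groups were well apart, and HERPUD1 fell by 0.61 in log2 units (SE 0.0398, edgeR's adjusted p = 1.09e-06), and by 0.55 with the correction. With any one library left out its fold change stayed between -0.64 and -0.59.

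The falls of the other members of the complex were smaller. SEL1L, the adaptor of the ligase, fell by 0.21, with 8.79 ± 0.216 FPKM in shSLC1A5 libraries and 10.1 ± 0.198 FPKM in shControl libraries (SD, n = 3 each). DERL2, a derlin of the retrotranslocation channel, fell by 0.24. Its shSLC1A5 libraries were unequal, at 7.28, 7.52 and 8.59 FPKM, against 9.01, 9.31 and 9.04 FPKM in shControl libraries. SELENOS, the selenoprotein that ties derlins to the ATPase VCP, was at -0.16 (adjusted p = 0.0111 by edgeR), or -0.09 with the correction (adjusted p = 0.119). SYVN1, the ubiquitin ligase HRD1, was at -0.09 (adjusted p = 0.130) and was called lower with the correction (-0.20, adjusted p = 0.00697). FAU, an abundant ribosomal protein gene on the same strand, shares 7.24% of the exon bases of SYVN1, so the counts of SYVN1 are uncertain. FAU had 103 FPKM in shSLC1A5 libraries and 91.8 FPKM in shControl libraries. The mannosidase-like proteins that mark glycoproteins for degradation, EDEM1, EDEM2 and EDEM3, were at -0.08, -0.09 and -0.08, the lectin OS9 at -0.06 and DERL1 at -0.05, none of them past the threshold (adjusted p from 0.0537 to 0.347 by edgeR). For these 5 genes the 95% confidence intervals reached from -0.21 at the lowest to 0.04 at the highest. With the correction EDEM1, EDEM2 and EDEM3 were at -0.05, -0.14 and -0.02, and DERL1 at 0.0044.

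**Figure D4:**
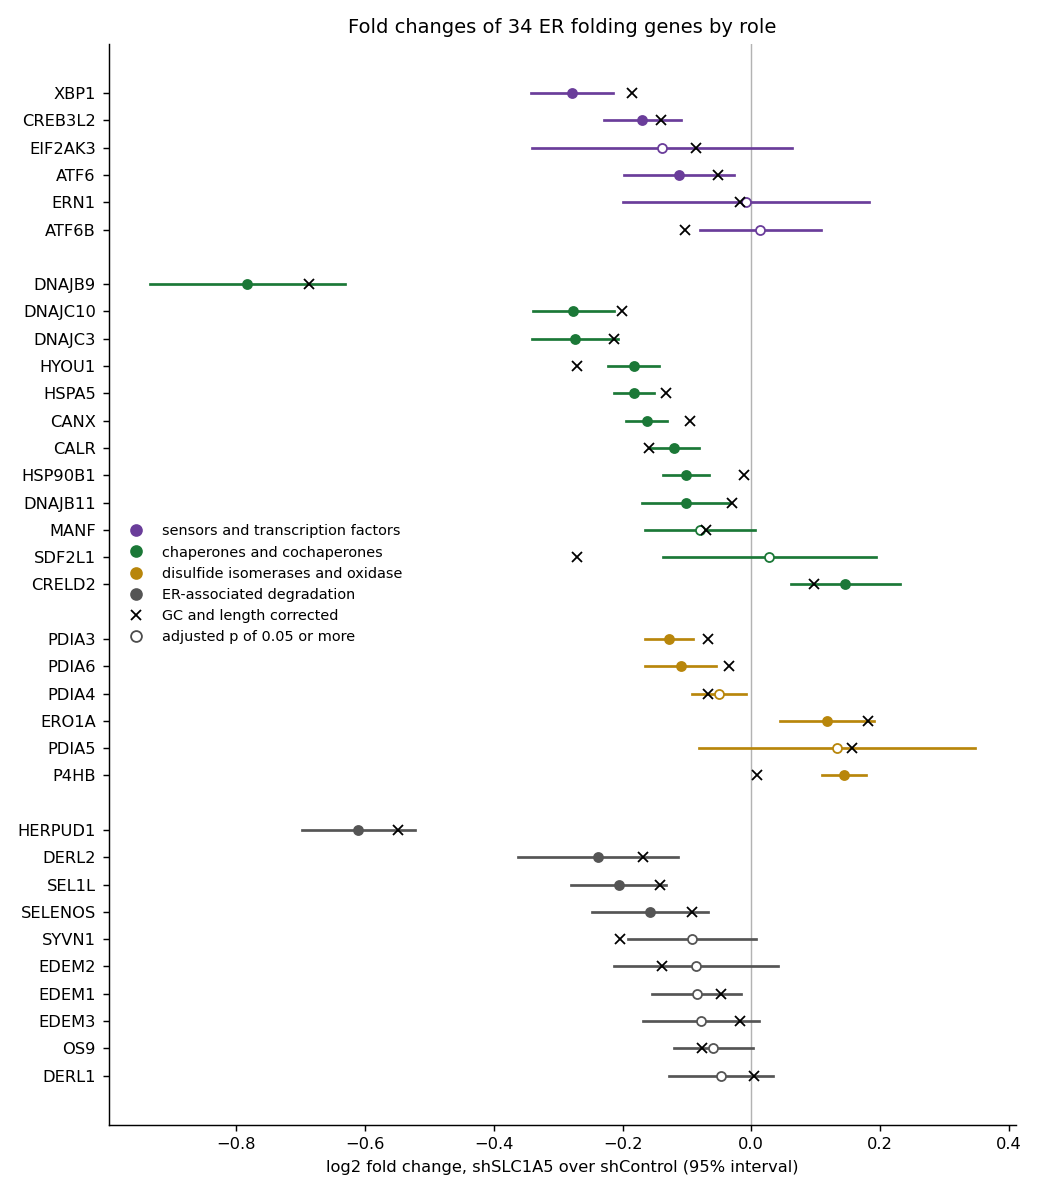
Log2 fold change (shSLC1A5 over shControl) of the 34 genes with its 95% confidence interval by edgeR, coloured by role; open circles did not pass an adjusted p of 0.05, and crosses give the value after the GC and length correction. The crosses of P4HB and HSP90B1 lie near 0, and that of SDF2L1 lies at -0.27.

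The other genes of the ER pathway were taken from 7 lists by function, 111 genes of which 109 were tested. Of these, 46 fell and 10 rose, against 19.0% and 20.2% of all tested genes, with a median log2 fold change of -0.08. With the correction 37 fell and 9 rose, against 14.1% and 11.6% of all tested genes. Genes of translocation into the ER and signal peptide cleavage fell in 12 of 18 cases and rose in 1. With the correction 7 were lower and 1 higher, and limma called 6 lower with a pseudocount of 0.1 FPKM and 7 with 1 FPKM. SSR4, the gene higher without the correction, was at 0.13, and at -0.06 with it (adjusted p = 0.203 by edgeR); it is named after its values were seen. SSR3 and SSR1, subunits of the translocon-associated complex, fell by 0.34 and 0.27, and SRPRB, a subunit of the receptor of the signal recognition particle, fell by 0.26. SSR3 was at 61.5 ± 0.448 FPKM in shSLC1A5 libraries and 76.9 ± 1.74 FPKM in shControl libraries (SD, n = 3 each).

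The COPII coat and cargo receptors carry folded proteins out of the ER. Their genes fell in 10 of 19 cases and rose in 1, against 19.0% and 20.2% of all tested genes. With the correction 6 were lower and 0 higher, and 5 were lower with a replicate block added. By limma on log2(FPKM + 0.1) 6 were lower. SEC23B, a coat subunit, fell by 0.30, MCFD2, a cofactor of the cargo receptor LMAN1, by 0.18 and SEC24D, a cargo-binding subunit, by 0.16. Of the other stress sensors, proteases and genes of the PERK branch, 7 of 15 fell and 0 rose (0 by unadjusted p under 0.05, by DESeq2 and by limma), and with the correction 9 were lower and 0 higher. TRIB3, a pseudokinase induced through ATF4 and CHOP, fell by 0.42, DDIT3, which encodes CHOP, by 0.37, and PPP1R15A (GADD34), which restores translation after PERK has acted, by 0.36. PPP1R15A was at 42.2 ± 0.262 FPKM in shSLC1A5 libraries and 53.6 ± 1.19 FPKM in shControl libraries (SD, n = 3 each). The falls of TRIB3 and PPP1R15A were larger with the correction, at -0.62 and -0.50.

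Oligosaccharyltransferase and calnexin cycle genes fell in 6 of 18 cases and rose in 2, against 19.0% and 20.2% of all tested genes. With the correction 5 were lower and 1 higher. Neither of the 2 rises held with it. DAD1, a subunit of the transferase that attaches glycans, fell by 0.22 and STT3A, a catalytic subunit, by 0.14. MAN1B1, an ER mannosidase, was at 0.22 (adjusted p = 0.00283 by edgeR), or 0.08 with the correction (adjusted p = 0.176). PRKCSH, the beta subunit of glucosidase II, was at 0.12, but was called lower with the correction (-0.07, adjusted p = 0.0131 by edgeR); it too is named after its values were seen. Among 11 other thioredoxin-fold genes 4 fell and 0 rose (0 by unadjusted p under 0.05, by DESeq2 and by limma). With the correction 2 were lower and 2 higher, where 14.1% and 11.6% of all tested genes were. The higher genes, named after their values were seen, were TMX3 (0.09, adjusted p = 0.0330 by edgeR) and TMX4 (0.11, adjusted p = 0.0419). Without the correction the largest called falls were in TMX2, a membrane-bound member, at -0.16, ERP44, which retains ERO1 proteins, at -0.16, and TXNDC11 at -0.14. The last 2 calls were lost without shSLC1A5 replicate 3, and that of ERP44 also without shControl replicate 2 or 3 and with the correction (adjusted p = 0.183).

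Other ERAD genes fell in 5 of 17 cases (29.4%) and rose in 3 (17.6%), against 19.0% and 20.2% of all tested genes. With the correction 4 were lower and 4 higher, where 14.1% and 11.6% of all tested genes were. UBE2J1, a ubiquitin-conjugating enzyme of the HRD1 complex, fell by 0.25, ERLEC1, a lectin related to OS9, by 0.21 (0.11 with the correction, adjusted p = 0.0651), and UFD1, a cofactor of VCP, by 0.18. Peptidyl-prolyl isomerases and other foldases fell in 2 of 11 cases (18.2%) and rose in 3 (27.3%), with a median log2 fold change of 0.03. The falling share was near the 19.0% of all tested genes. With the correction 4 were lower and 1 higher, and the median was -0.07. FKBP14 fell by 0.24. FKBP10, an isomerase for collagen, was at 0.23 with 44.9 ± 0.854 FPKM in shSLC1A5 libraries and 37.9 ± 1.15 FPKM in shControl libraries (SD, n = 3 each), or at 0.08 with the correction (adjusted p = 0.0957). SDF4, a calcium-binding protein, was at 0.13, and at -0.12 with the correction, called in opposite directions by the 2 fits.

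**Figure D5:**
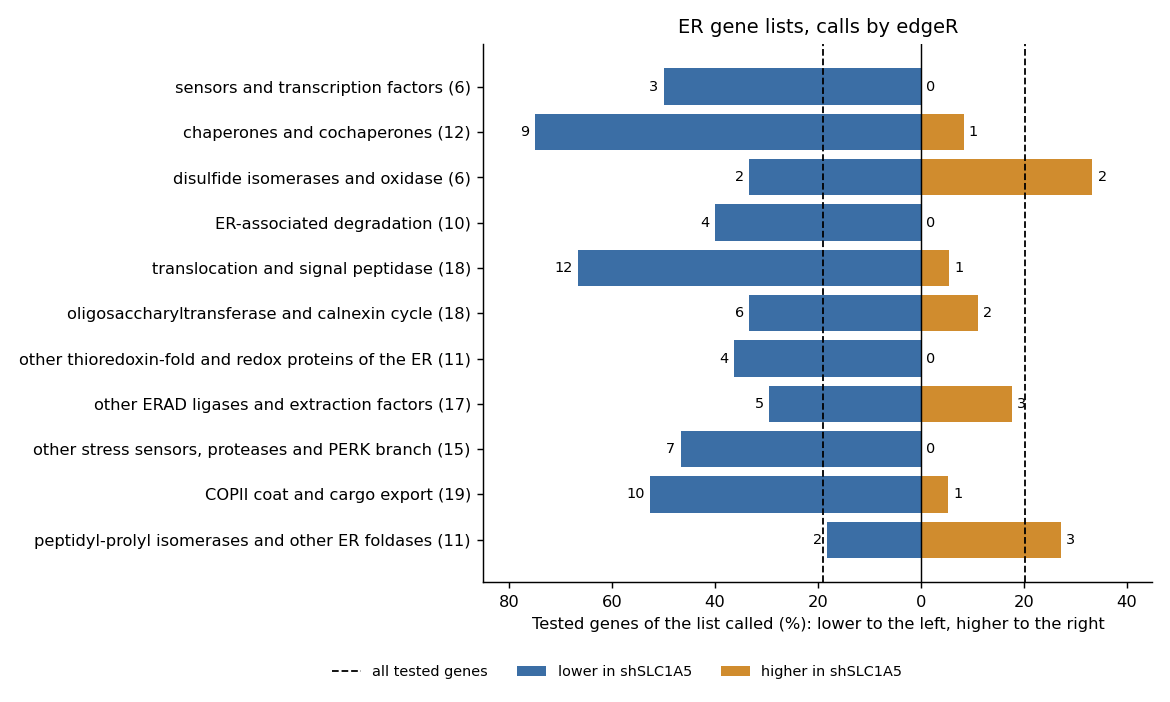
Percent of tested genes called lower (left) and higher (right) in shSLC1A5 libraries by edgeR for the 4 roles of the 34 genes and the 7 other ER lists, with numbers of genes at the bar ends and tested genes in brackets. Dashed lines mark the percent of all tested genes, 19.0% lower and 20.2% higher. Chaperones (9 of 12 lower) and translocation genes (12 of 18 lower) reach farthest left; with the GC and length correction, which is not drawn, these counts were 8 and 7.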

How the data were processed

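RNA of 3 shSLC1A5 and 3 shControl libraries of T98G was sequenced as pairs of 150 bases. The submitters' processing notes name fastp, HISAT2 and StringTie without versions. Genome build, annotation and strand setting are not stated in the labels or headers. Per the file headers the deposited table holds counts per gene, taken as raw, and FPKM made by the authors. Columns were matched by group and number in the titles.

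Genes averaging 1 FPKM or more were tested on the counts with edgeR 4.0.16 (R 4.3.3): TMM factors, group alone, quasi-likelihood F tests, Benjamini-Hochberg adjustment over all tested genes, threshold 0.05. A standard error is the absolute log2 fold change over the square root of F. The correction for GC content and length used, as offsets, loess fits of each library's deviations (span 0.3) on the longest transcript of each gene in GENCODE 29, known for 99.7% of the genes. DESeq2 1.42.0, limma 3.58.1, other factors and filters, a replicate block and omission of each library were alternatives. Replicates differed by 9.82 to 16.7 times counting noise (chi-square per gene), so none was treated as a repeat.

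The genes, roles and lists were chosen with earlier results of these data known. The rule for named genes gave values per library for sensors, for called genes with an absolute log2 fold change of at least 0.3 and for genes against their role group, up to 3 called genes per other list, and promoters of HSPA5 and of the genes with the 3 largest falls; protein ends it also named were not used here. Further marker lists were summed as counts. Red cell markers gave 1004, 20 and 7 in shSLC1A5 libraries, against 5, 6 and 0 in shControl libraries. T cell and macrophage markers gave 4035, 3403 and 3840, against 2716, 3051 and 2654. Most of these were counts of CD68, at 3474, 3292 and 3748 in shSLC1A5 libraries, against 2640, 2972 and 2548 in shControl libraries. The T cell genes CD3D, CD3E and CD2 had at most 4 counts in any library. Neuronal and oligodendrocyte markers gave 1302, 967 and 1242, against 954, 1074 and 979 in shControl libraries. Mesenchymal glioma markers gave 407417, 390682 and 392701 in shSLC1A5 libraries, against 397012, 395830 and 373566 in shControl libraries.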

Additional observations from a re-analysis of the deposited data

How the results depend on the processing

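Of 541 fold changes of the 34 genes recomputed under 16 alternatives, 481 kept their direction and their side of the threshold, 39 lost a call, 7 gained one and 14 changed sign. None of the genes called by edgeR changed sign under these alternatives. ATF6B was at -0.10 with the GC and length correction, alone or with the replicate block, and between -0.025 and 0.039 with 1 library left out. DERL1 was at 0.0044 with the correction and 0.0057 with the block added. SDF2L1 was at -0.27 in both of these fits and between -0.018 and 0.092 with 1 library left out. ERN1 was at 0.0022 with upper-quartile factors, 0.0051 by limma with a pseudocount of 0.1 and 0.00297 with 1, and between -0.049 and 0.037 with 1 library left out.

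Genes lower among the 34 numbered 14 by limma with either pseudocount, 20 by DESeq2 and 16 to 18 with 1 library left out. Higher genes numbered 1 with the correction, alone or with the block, and 1 to 3 with 1 library left out. In these 2 corrected fits chaperones had 0 higher and disulfide genes 1 higher; with 1 library left out they had 0 to 1 and 1 to 2. Disulfide genes had 1 lower by limma and 2 to 3 with 1 library left out. The other ER lists had 27 lower by limma with 0.1 and 30 with 1, and 35 to 42 with 1 library left out. Over all genes 1376 were higher with the correction, 1283 with the block added, and 2027 to 2158 with 1 library left out. The median log2 fold change of the 34 was -0.0889 with the correction, -0.0841 with the block added, -0.0927 and -0.0890 by limma with 0.1 and 1, -0.0925 among genes averaging 5 FPKM or more, and -0.12 to -0.10 with 1 library left out. By limma HSP90B1 (adjusted p = 0.0708 with 0.1 and 0.0585 with 1) and PDIA6 (0.102 and 0.0875) were not called, nor were ATF6 (0.0954 and 0.0913) and DNAJB11 (0.161 and 0.146). ATF6 was not called either with upper-quartile factors (0.0545), among genes averaging 5 FPKM or more (0.0750) or with no filter (0.0917), nor DNAJB11 with no filter (0.0795). DESeq2 called PDIA4 (adjusted p = 0.0318) and EDEM1 (0.0353) lower. The causes were not tested.

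The labels do not say that replicate numbers pair libraries, and same-numbered libraries did not deviate together (correlations -0.15, 0.04 and -0.03). The replicate block left 17 genes lower and 3 higher, with ATF6 no longer called (adjusted p = 0.0572 by edgeR).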

Other observations

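Outside the 34 genes, 9 tested genes carried an ERSE in a RefSeq promoter window, and 4 of them were lower and 1 higher in shSLC1A5 libraries by edgeR. Of all tested genes 19.0% were lower and 20.2% higher. The median log2 fold change of the 9 was -0.18. With the GC and length correction 5 were lower and 1 higher, with a median of -0.13, where 14.1% and 11.6% of all tested genes were. Of 10 other tested genes with an ERSE-II, 4 were lower and 3 higher, with a median of 0.02. With the correction 2 of these were lower and 2 higher, with a median of -0.03. Both sets were found by the motif and not by their values, and the genes named next carry an ERSE. SERP1, which stabilizes membrane proteins in the translocon, was at 27.9 ± 0.537 FPKM in shSLC1A5 libraries and 31.6 ± 1.05 FPKM in shControl libraries (SD, n = 3 each), and fell by 0.19 on the log2 scale. EIF2A, an initiation factor whose gene lies within the span of SERP1 on the opposite strand, fell by 0.22, TRIM5 by 0.23 and SYNPO by 0.18 (0.35 with the GC and length correction). ALG12, which overlaps CRELD2 head to head, rose by 0.26 (0.15 with the correction). Both strands were searched, so SERP1 and EIF2A, like ALG12 and CRELD2, may share an element yet were counted as separate genes. FICD, the enzyme that AMPylates BiP, was at -0.18 and ERO1B, a relative of ERO1A, at -0.19, neither past the threshold (adjusted p = 0.315 and 0.225 by edgeR).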
